A study of Mus musculus with 6 samples.

Results

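Nnt, Wdfy1 and Entpd4 are 3 protein-coding genes on autosomes that moved the same way in macrophages of 2 different knockouts. They were chosen by their measured differences: in the deposited counts each was higher or lower than wild type in both knockouts. All 3 were found among the 23337 gene symbols of the table, and all 3 were among the 12923 that passed the filter on low counts. Since these differences picked the genes, their values against wild type are given as a description, with no test. The contrast between the 2 knockouts was not itself used in the choice, though the same knockout libraries were, and it was tested.

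The cells were macrophages grown from mouse bone marrow for 7 days in M-CSF, the growth factor that drives macrophage differentiation, and given LPS, the bacterial lipid that Toll-like receptor TLR4 senses, at 100 ng/ml for 8 h. RNA sequencing covered 2 libraries of wild type (WT), 2 of the knockout of Ch25h, the enzyme gene for 25-hydroxycholesterol (Ch25hKO), and 2 of the knockout of both liver X receptors (LXRdKO). The strain label reads C57BL/6 in every library and names no substrain, so substrain and knockout cannot be told apart in these groups. The labels do not tell separate mice from repeat libraries of 1 culture, and p-values therefore measure only the spread between these libraries. Counts per library summed to between 41650513 and 45872964. Ch25h stood at 1.62% of its WT level in Ch25hKO, and in LXRdKO Nr1h3 and Nr1h2, the 2 LXR genes, stood at 5.66% and 2.60%. All 8 macrophage markers checked were above 1 CPM (counts per library size, with size adjusted by TMM), while the 2 neutrophil and 3 B cell markers in the table were below it. Summed T cell markers (3 genes) ran from 2.10 to 2.95 CPM in WT, from 2.35 to 2.57 in LXRdKO and, below both, from 1.38 to 1.94 in Ch25hKO. Summed dendritic cell markers (3 genes) ran from 5.01 to 5.57 CPM in Ch25hKO, from 13.4 to 15.2 in WT and from 13.5 to 15.1 in LXRdKO. Only 1 of the 3 dendritic cell markers and 1 of the 3 T cell markers averaged above 1 CPM (10.8 and 2.19 CPM). Each of these 2 sums therefore rests mostly on 1 gene. Summed stromal markers (3 genes) ran from 6.86 to 6.91 CPM in WT, from 18.3 to 19.0 in Ch25hKO and from 9.93 to 10.4 in LXRdKO. In RNA from a whole culture, fewer cells of a type and less RNA per cell cannot be told apart.

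Mouse colonies bred apart under one strain name collect their own mutations, and C57BL/6 has long been kept as separate sublines such as C57BL/6J and C57BL/6N. Nnt encodes nicotinamide nucleotide transhydrogenase, an inner mitochondrial membrane protein that uses the proton gradient to make NADPH, the reductant that mitochondria need to clear peroxide. C57BL/6J is known to carry a deletion of several internal exons of Nnt. Wdfy1 encodes a protein with WD40 repeats and a FYVE domain that binds the lipid PI3P on early endosomes, and it has been described as a helper of TLR3 and TLR4 in recruiting the adaptor TRIF. Entpd4 encodes a nucleoside diphosphohydrolase of the Golgi and lysosomal membranes, which splits nucleotides such as UDP. All of these roles are background and were not measured here.

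The reference sequence bears on what could be counted for Nnt and Entpd4, so short coding stretches of both are shown, read from the GENCODE M21 transcripts on GRCm38, the build also called mm10 that the submitters' processing notes name. GRCm38 is the genome of C57BL/6J. The first line is the junction of exon 7 (lower case) and exon 8 (capitals) in the 17-exon Nnt transcript Nnt-202, at chr13:119374745-119381705 on the minus strand with the intron between, where as background the exons missing from C57BL/6J would lie. The other lines are the first 60 coding bases of Entpd4, starting in an exon at chr14:69347587-69349124, and of its copy Entpd4b at chr14:69565837-69567374, both on the plus strand and each spanning an intron, with the start codon in capitals.
Nnt exon junction: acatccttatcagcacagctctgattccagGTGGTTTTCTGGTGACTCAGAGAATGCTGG
Entpd4: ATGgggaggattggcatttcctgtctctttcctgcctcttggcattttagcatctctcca
Entpd4b: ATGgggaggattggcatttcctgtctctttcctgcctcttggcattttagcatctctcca

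Reads from Nnt exons that GRCm38 does not hold could not be counted in any library. For Entpd4 the limit was wider. The gene and Entpd4b start 218.2 kb apart on chromosome 14, and 5 of the 6 annotated Entpd4 transcripts were identical, base for base, to an Entpd4b transcript. Of 8206 distinct stretches of 50 bases in Entpd4 transcripts, 8206 (100%) also occurred in Entpd4b transcripts, against 0.20% of those of Nnt and 1.66% of those of Wdfy1 that occurred in any other gene. Entpd4b was not matched in the count table and is not analysed here. No source used here states how reads with several equally good placements were counted. The Entpd4 counts may therefore leave out reads of either copy, or hold reads that came from Entpd4b. Their level and their differences between genotypes are thus uncertain, and so is which copy they describe.

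Nnt (ENSMUSG00000025453.18 and the overlapping ENSMUSG00000116207.1) lies on chromosome 13 from 119335448 to 119408997. The WT libraries held 1138 and 1146 counts, those of Ch25hKO 582 and 575, and those of LXRdKO 720 and 699. Scaled to library size, these were 25.6 and 26.4 CPM (WT), 13.4 and 13.2 CPM (Ch25hKO) and 16.4 and 15.8 CPM (LXRdKO). Both WT libraries lay above all 4 knockout libraries, an order that the choice of the gene made likely. The level in Ch25hKO was 51.2% of WT, a log2 fold change of -0.97 ± 0.07 (standard error, n = 2 per group). In LXRdKO it was 62.0% of WT (-0.69 ± 0.07). The transcript was thus of middling abundance: its WT level exceeded that of 65.2% of tested genes.

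Wdfy1 (ENSMUSG00000073643.11) lies on chromosome 1 from 79702262 to 79776143. The WT libraries held 4571 and 4534 counts, those of Ch25hKO 2577 and 2787, and those of LXRdKO 2337 and 2327. Scaled levels were 102.9 and 104.4 CPM (WT), 59.4 and 63.9 CPM (Ch25hKO) and 53.2 and 52.6 CPM (LXRdKO). Again the WT libraries were the highest, which the choice of the gene made likely, but here LXRdKO was the lowest group. The level was 59.5% of WT in Ch25hKO (-0.75 ± 0.05) and 51.1% in LXRdKO (-0.97 ± 0.05). Some annotated Wdfy1 exon bases are shared with Mrpl44, a mitochondrial ribosome gene, which stood at 12.9 ± 0.31 CPM in WT, 13.6 ± 0.68 in Ch25hKO and 13.5 ± 1.47 in LXRdKO (SD, n = 2).

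Entpd4 (ENSMUSG00000095463.8) lies on chromosome 14 from 69337174 to 69367270 and was the member that moved upward. The WT libraries held 16 and 18 counts, those of Ch25hKO 201 and 191, and those of LXRdKO 146 and 159. Scaled levels were 0.36 and 0.41 CPM (WT), 4.64 and 4.38 CPM (Ch25hKO) and 3.33 and 3.60 CPM (LXRdKO). All 4 knockout libraries lay far above both WT libraries, again an order that the choice of the gene made likely. The level was 11.6-fold that of WT in Ch25hKO (3.53 ± 0.20) and 8.89-fold in LXRdKO (3.15 ± 0.21). In WT only 6.84% of tested genes had a lower level. The stromal marker sum given above was also lowest in WT and highest in Ch25hKO, and its part in the Entpd4 difference was not tested.

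**Figure D1:**
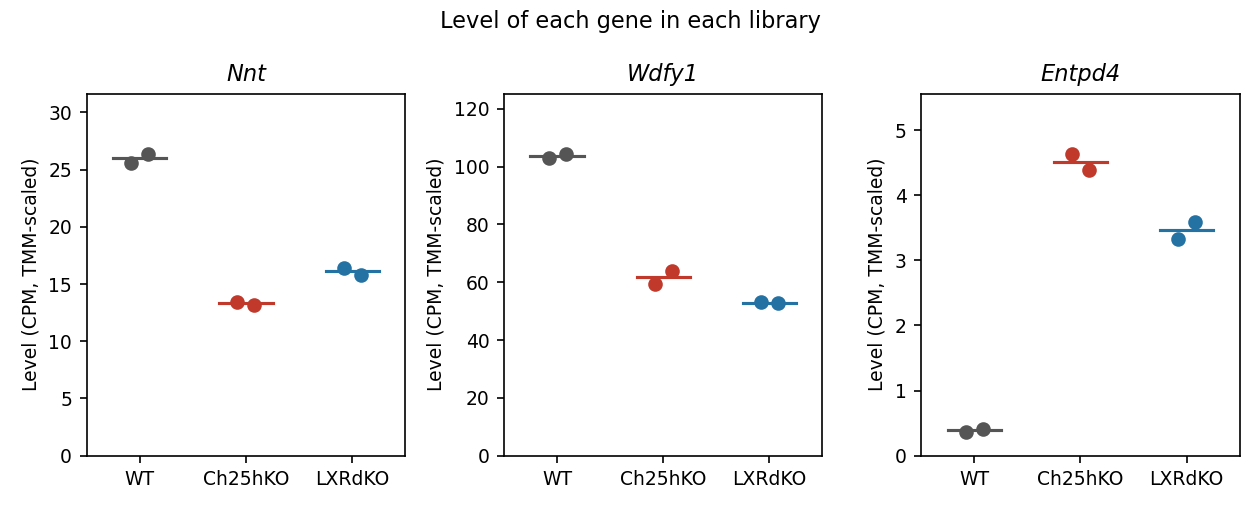
Level of Nnt, Wdfy1 and Entpd4 in CPM (vertical axes, each starting at 0) in the 2 libraries of each genotype; points are libraries and bars are group means. WT is the highest group for Nnt (25.6 and 26.4 CPM) and Wdfy1 (102.9 and 104.4 CPM) and the lowest for Entpd4 (0.36 and 0.41 CPM).

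The spread within groups was small beside these differences, but the same differences chose the genes, so this is no support for them. The higher library of a pair exceeded the lower by a factor of 1.02 to 1.04 for Nnt, 1.01 to 1.07 for Wdfy1 and 1.06 to 1.15 for Entpd4. Levels per length of gene, as CPM per kilobase of annotated exon (RPKM), allow the genes to be set side by side. In WT they were 16.0 ± 0.16 RPKM for Wdfy1, 3.69 ± 0.08 for Nnt and 0.048 ± 0.005 for Entpd4 (SD, n = 2), the last subject to the shared sequence above. In Ch25hKO the same order held, with 9.51 ± 0.49, 1.89 ± 0.02 and 0.56 ± 0.02 RPKM.

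Among all tested genes, Entpd4 stood far out in the size of its difference and the other members did not. It ranked number 14 of 12923 among increases in Ch25hKO and number 10 in LXRdKO. These ranks rest on 16 and 18 counts in WT. The sequence shared with Entpd4b makes the size of the Entpd4 difference uncertain as well. Nnt ranked number 547 among decreases in Ch25hKO, with 4.22% of tested genes lower still, and number 925 in LXRdKO (7.15%). Wdfy1 ranked number 865 in Ch25hKO (6.69%) and number 493 in LXRdKO (3.81%). Each knockout differed from WT in many genes. At an edgeR quasi-likelihood adjusted p (Benjamini-Hochberg) under 0.05, written as called from here on, 19.8% of tested genes rose and 19.5% fell in Ch25hKO, and 16.4% rose and 15.5% fell in LXRdKO. Both comparisons use the same WT libraries.

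The 2 knockouts were then compared with each other, the contrast that did not choose the genes. All 3 genes were called, with 1 higher and 2 lower in LXRdKO than in Ch25hKO, in a comparison in which 19.3% of tested genes were called higher and 18.6% lower. Nnt was 1.21-fold higher in LXRdKO (log2 fold change 0.28 ± 0.07, edgeR adjusted p = 0.00555). It no longer passed when Ch25hKO replicate 2 (0.26, edgeR adjusted p = 0.0504) or LXRdKO replicate 1 was left out (0.25, edgeR adjusted p = 0.0539). Wdfy1 in LXRdKO was at 85.8% of its Ch25hKO level (-0.22 ± 0.06, edgeR adjusted p = 0.00384), which no longer passed when either of 2 libraries was left out, Ch25hKO replicate 2 (-0.17, edgeR adjusted p = 0.0942) or LXRdKO replicate 2 (-0.21, edgeR adjusted p = 0.0514). Entpd4 was at 76.8% (-0.38 ± 0.14, edgeR adjusted p = 0.0387). The Entpd4 call was the weakest: it was lost without any 1 of the 4 knockout libraries (edgeR adjusted p from 0.0987 to 0.207), with DESeq2 (adjusted p = 0.206) and with the replicate number as a block (edgeR adjusted p = 0.0542).

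In order of level, Nnt therefore ran from WT through LXRdKO to Ch25hKO, Wdfy1 from WT through Ch25hKO to LXRdKO, and Entpd4 from Ch25hKO through LXRdKO to WT.

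**Figure D2:**
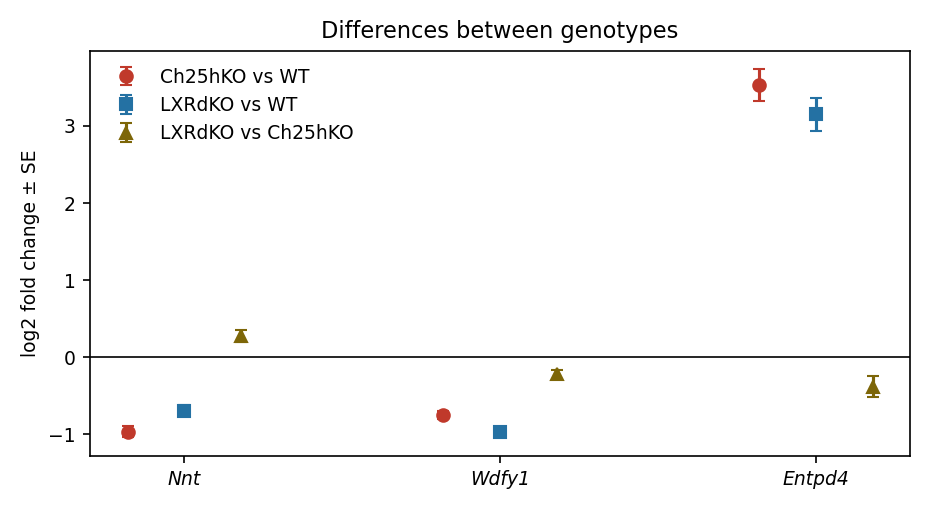
Log2 fold change ± standard error (vertical axis) of Nnt, Wdfy1 and Entpd4 in Ch25hKO against WT (circles), LXRdKO against WT (squares) and LXRdKO against Ch25hKO (triangles). The knockouts differ from each other by 0.28 for Nnt, -0.22 for Wdfy1 and -0.38 for Entpd4, the contrast that did not choose the genes.

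The genes beside each member on its chromosome were read next, taking the 5 nearest tested genes on each side, with distances between midpoints. In Ch25hKO, 14 of these 30 genes were called higher and 6 lower (46.7% and 20%, beside 19.8% and 19.5% of all tested genes), with a median log2 fold change of 0.29 against 0.01 over all. In LXRdKO, 7 were higher and 8 lower (23.3% and 26.7%, beside 16.4% and 15.5% of all), with a median of 0.01 against 0.00 over all. Without Ch25hKO replicate 1 the number higher in Ch25hKO came to 9, and without LXRdKO replicate 1 the number lower in LXRdKO came to 4.

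Around Nnt, most neighbours that were called went upward while Nnt was lower. In LXRdKO, 6 of 10 were called higher and 0 lower, and in Ch25hKO 7 were higher and 1 lower. Over all tested genes the shares were 16.4% and 15.5% in LXRdKO and 19.8% and 19.5% in Ch25hKO. The neighbours are not all separate loci: Pelo (115088355 to 115090186) lies wholly within the span of Itga1 (114953096 to 115101964). The nearest gene on the side of higher coordinates, Paip1, whose product helps translation start at the poly(A) tail, rose in both knockouts (0.37 ± 0.06, edgeR adjusted p = 0.000163, and 0.45 ± 0.06, edgeR adjusted p = 2.58e-05). It had 20.6 and 21 CPM (WT), 26.6 and 27.1 CPM (Ch25hKO) and 29.2 and 27.9 CPM (LXRdKO). On the other side Mrps30, a mitochondrial ribosome gene, was at 0.31 ± 0.10 in Ch25hKO (edgeR adjusted p = 0.0165), a call lost without WT replicate 1 or either Ch25hKO library (edgeR adjusted p from 0.0615 to 0.111) and with DESeq2 (adjusted p = 0.11). It was at 0.02 ± 0.10 in LXRdKO. The midpoint of Mrps30 lies at -989.4 kb from that of Nnt, against 71.2 kb for Paip1. The farthest of the 5 genes on the Mrps30 side lies at -4344.7 kb. Hmgcs1, an early enzyme gene of cholesterol synthesis that lies 327.1 kb from Nnt, rose by 3.78 ± 0.06 in Ch25hKO (edgeR adjusted p = 3.94e-18) and by 0.26 ± 0.07 in LXRdKO (edgeR adjusted p = 0.00661, lost without WT replicate 2 at edgeR adjusted p = 0.0619 or LXRdKO replicate 2 at edgeR adjusted p = 0.0743). The predicted gene Gm7120, 177.3 kb from Nnt, had 49 and 52 counts (WT), 82 and 99 counts (Ch25hKO) and 285 and 274 counts (LXRdKO), rising by 2.46 ± 0.16 in LXRdKO (edgeR adjusted p = 2.58e-09) and by 0.85 ± 0.19 in Ch25hKO (edgeR adjusted p = 0.00137). The unnamed model E130304F04Rik rose by 1.26 ± 0.24 in Ch25hKO (edgeR adjusted p = 0.000485). It starts at 119710094, just past the end of Hmgcs1 at 119708260.

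Around Wdfy1 the nearest gene on the side of lower coordinates moved with it. Ap1s3, which encodes a small subunit of the AP-1 clathrin adaptor, had 12.9 and 11.6 CPM (WT), 4.36 and 5.53 CPM (Ch25hKO) and 7.16 and 7.49 CPM (LXRdKO). It fell by 1.31 ± 0.11 in Ch25hKO (edgeR adjusted p = 7.09e-08) and by 0.74 ± 0.11 in LXRdKO (edgeR adjusted p = 4.1e-05). No library of WT overlapped a knockout library. On the other side the nearest gene, Mrpl44, was at 0.08 ± 0.09 in Ch25hKO and 0.07 ± 0.09 in LXRdKO and did not pass in either (edgeR adjusted p = 0.512 and 0.605). Over the 10 neighbours, 3 were called higher and 3 lower in Ch25hKO, and 0 higher and 4 lower in LXRdKO. These are shares of 30% and 30%, beside 19.8% and 19.5% of all tested genes, and of 0% and 40%, beside 16.4% and 15.5%. Some of these went opposite ways in the 2 knockouts: Acsl3, an acyl-CoA synthetase gene, was at 1.71 ± 0.10 and -0.81 ± 0.12, and Utp14b, a retrogene involved in ribosome assembly, at 1.01 ± 0.13 and -1.12 ± 0.16 (all called). Utp14b (78658038 to 78671512) lies wholly within the span of Acsl3 (78657825 to 78707743), so these 2 neighbours share 1 locus. The unnamed model 9430031J16Rik fell by 1.43 ± 0.34 in Ch25hKO (edgeR adjusted p = 0.00267).

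Around Entpd4 the nearest tested gene on the side of higher coordinates, Loxl2, also moved with the member. Loxl2 encodes a lysyl oxidase that crosslinks collagen, and its midpoint lies 300.2 kb from that of Entpd4, beyond the copy Entpd4b. The WT libraries held 22 and 11 counts, those of Ch25hKO 103 and 98, and those of LXRdKO 60 and 54, so both knockouts lay above WT with no overlap. It rose by 2.61 ± 0.28 in Ch25hKO (edgeR adjusted p = 7.78e-07) and by 1.78 ± 0.30 in LXRdKO (edgeR adjusted p = 0.000184). The stromal marker sum has the same order of genotypes, and its part in the Loxl2 difference was not tested. On the other side Slc25a37, the mitochondrial iron carrier gene mitoferrin-1, rose by 0.42 ± 0.06 in Ch25hKO (edgeR adjusted p = 1.91e-05) and stood at -0.06 ± 0.06 in LXRdKO (edgeR adjusted p = 0.44). Its LXRdKO value was -0.15 without WT replicate 1 and 0.01 without WT replicate 2. Of the 10 neighbours, 4 were called higher and 2 lower in Ch25hKO, and 1 higher and 4 lower in LXRdKO. The shares were 40% and 20% in Ch25hKO (all tested genes 19.8% and 19.5%) and 10% and 40% in LXRdKO (all tested genes 16.4% and 15.5%).

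**Figure D3:**
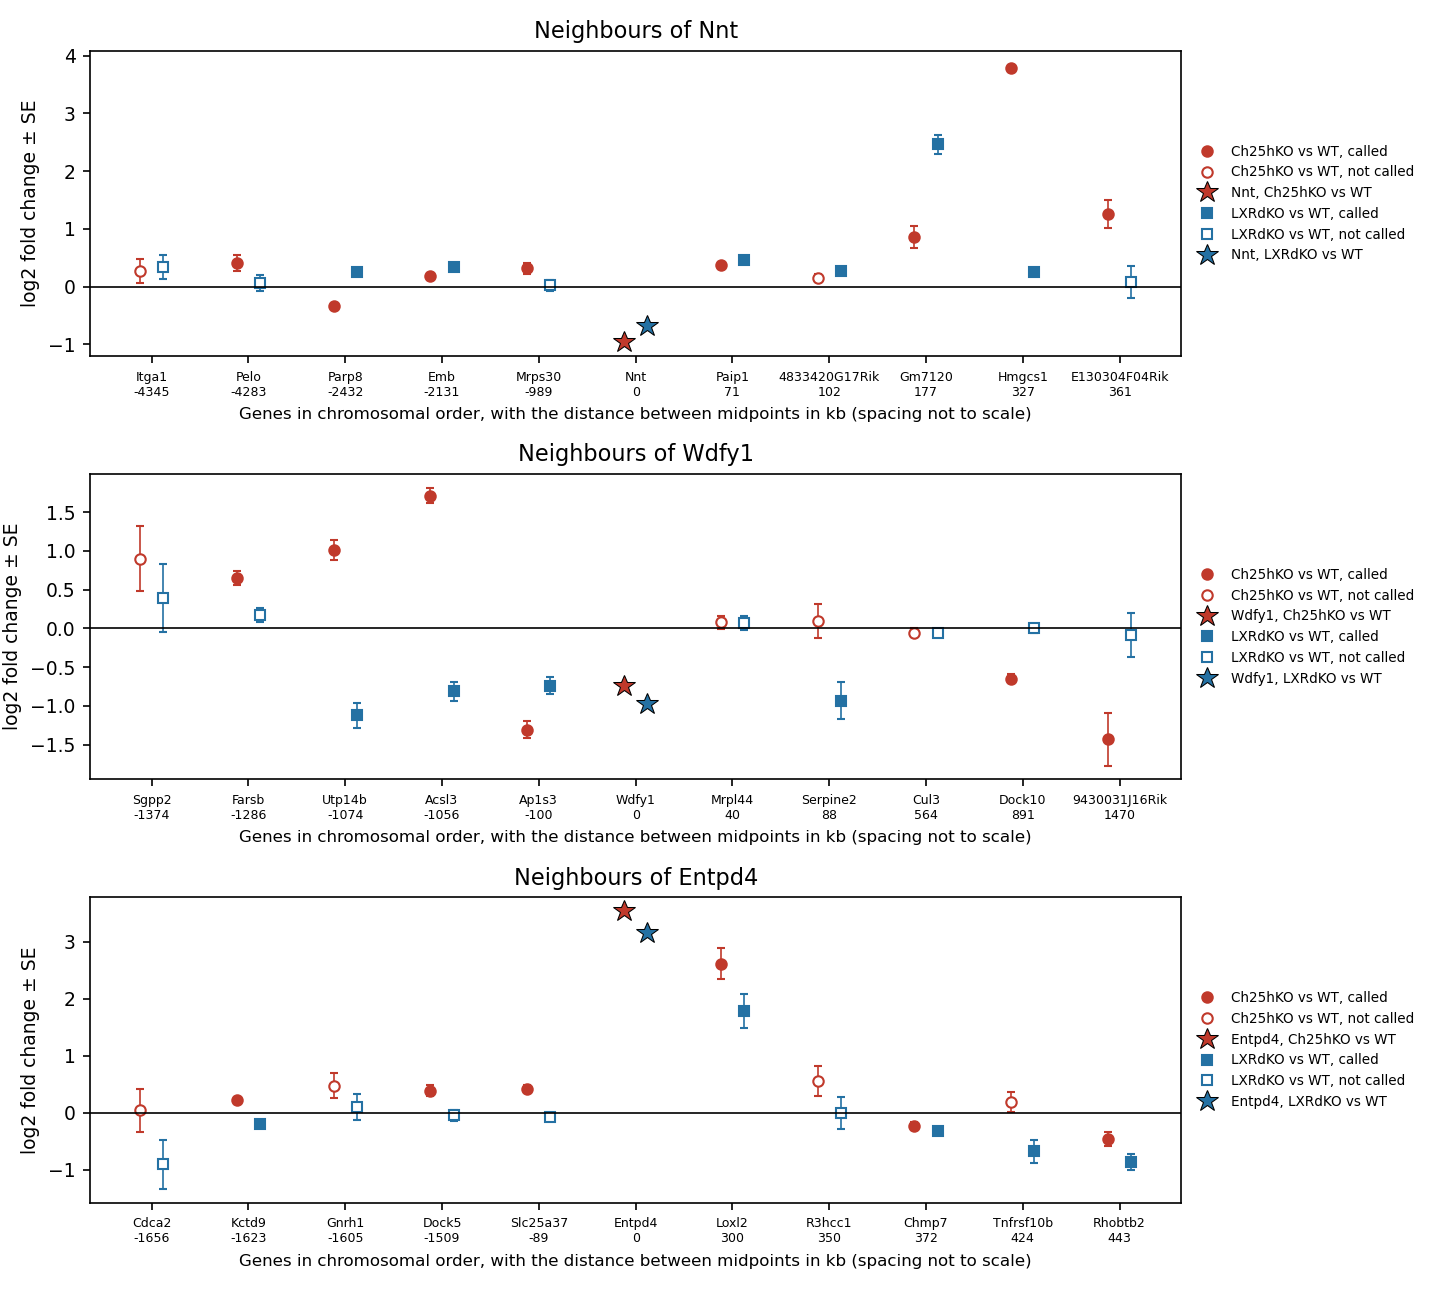
Log2 fold change ± standard error (vertical axes) of the 5 nearest tested genes on each side of Nnt, Wdfy1 and Entpd4 (stars), in chromosomal order with distances in kb; circles are Ch25hKO against WT, squares LXRdKO against WT, and filled points were called. Ap1s3 lies below 0 beside Wdfy1 and Loxl2 above 0 beside Entpd4 in both comparisons, while Paip1 lies above 0 beside Nnt.

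Genes with roles related to those of each member were described from lists of known function. Not all of them act in the compartment of the member. The list around Nnt held 20 genes, not all mitochondrial, that supply or use NADPH or clear peroxide or superoxide. Of these, 18 were tested. In Ch25hKO, 8 were called higher (44.4%, beside 19.8% of all tested genes) and 2 lower (11.1%, beside 19.5%), with a median of 0.21 against 0.01 over all. In LXRdKO, 3 were higher and 3 lower (16.7% each, near the 16.4% and 15.5% of all), with a median of 0.03. Gpx1, a glutathione peroxidase gene, fell in both, by 0.61 ± 0.05 in Ch25hKO (edgeR adjusted p = 9.69e-08) and by 0.29 ± 0.05 in LXRdKO (edgeR adjusted p = 0.000368). It had 176.8 and 163.2 CPM (WT), 113.6 and 109.4 CPM (Ch25hKO) and 137.1 and 139.9 CPM (LXRdKO). Nadk, the cytosolic kinase gene that makes NADP from NAD, rose in both (0.28 ± 0.05 and 0.39 ± 0.05, edgeR adjusted p = 0.00025 and 1.35e-05). Mthfd2, a mitochondrial folate enzyme gene, fell by 0.34 ± 0.06 and 0.40 ± 0.07. Mthfd1l, its partner in the folate pathway, rose by 0.49 ± 0.07 in Ch25hKO and by 0.26 ± 0.07 in LXRdKO, the latter lost without LXRdKO replicate 1 (edgeR adjusted p = 0.152). Without either Ch25hKO library the number higher in Ch25hKO came to 5, and without LXRdKO replicate 1 the number higher in LXRdKO came to 1.

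The list around Wdfy1 held 20 genes of its family, of early endosomes and of the TLR3 and TLR4 branch through TRIF, and all 20 were tested. In Ch25hKO, 6 were called higher and 5 lower (30% and 25%, beside 19.8% and 19.5% of all tested genes), with a median of 0.06. In LXRdKO 4 were higher and 3 lower (20% and 15%, near the 16.4% and 15.5% of all), with a median of -0.02. Tlr3, the endosomal receptor gene for double-stranded RNA, fell by 0.75 ± 0.06 in Ch25hKO (edgeR adjusted p = 3.05e-08), from 324.1 ± 7.08 CPM in WT to 192.6 ± 10.5 CPM (SD, n = 2), and was at 0.08 ± 0.06 in LXRdKO. Tlr4, the LPS receptor gene, rose by 0.79 ± 0.05 in LXRdKO (edgeR adjusted p = 5.07e-09), from 59.1 and 62.1 CPM in WT to 102.5 and 106.8. In Ch25hKO Tlr4 was at 0.19 ± 0.06 (edgeR adjusted p = 0.0108), which no longer passed when Ch25hKO replicate 1 was left out (edgeR adjusted p = 0.158). Among the relatives of Wdfy1, Wdfy2 fell in Ch25hKO (-0.49 ± 0.07, edgeR adjusted p = 1.12e-05) and Wdfy4, known for cross-presentation in dendritic cells, rose in LXRdKO (0.37 ± 0.05, edgeR adjusted p = 3.48e-05). The endosomal adaptor gene Appl1 rose in Ch25hKO (0.54 ± 0.05, edgeR adjusted p = 4.21e-07), and Traf3, a signalling adaptor gene, fell in LXRdKO (-0.31 ± 0.06, edgeR adjusted p = 0.000446). Traf3 was at -0.16 ± 0.06 in Ch25hKO, a call that 7 alternatives removed (adjusted p from 0.0536 to 0.253), among them the omission of either Ch25hKO or either LXRdKO library. Without Ch25hKO replicate 1 the Ch25hKO counts came to 3 higher and 3 lower, and without Ch25hKO replicate 2 to 2 and 3.

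The list around Entpd4 held 21 genes, mostly nucleotide-splitting enzymes and nucleotide sugar transporters, of which 17 were tested. Not all of them belong to the Golgi or ER. In Ch25hKO, 3 were called higher and 4 lower, with a median of 0.05. These shares of 17.6% and 23.5% are near the 19.8% and 19.5% of all tested genes. In LXRdKO 5 were higher and 3 lower (29.4% and 17.6%, beside 16.4% and 15.5% of all), with a median of 0.10. Entpd1, a relative of Entpd4 and the cell surface enzyme CD39 that breaks down ATP, fell by 0.60 ± 0.06 in Ch25hKO (edgeR adjusted p = 8e-07) and rose by 0.68 ± 0.06 in LXRdKO (edgeR adjusted p = 1.23e-07). It had 27.1 and 28.8 CPM (WT), 18.1 and 18.6 CPM (Ch25hKO) and 44.1 and 45.3 CPM (LXRdKO). Slc35c1, the Golgi GDP-fucose transporter gene, rose in both (0.65 ± 0.07 and 0.59 ± 0.07, edgeR adjusted p = 9.98e-07 and 3.81e-06). Slc35b4, a UDP-sugar transporter gene, rose by 0.43 ± 0.06 in Ch25hKO (edgeR adjusted p = 2.45e-05) and stood at 0.21 ± 0.06 in LXRdKO, which did not pass by DESeq2, or in edgeR when WT replicate 1 or either LXRdKO library was left out (adjusted p from 0.0599 to 0.107). Cant1, a Golgi UDP-splitting enzyme gene, rose in LXRdKO (0.32 ± 0.07, edgeR adjusted p = 0.00181). Without LXRdKO replicate 2 the LXRdKO counts came to 3 higher and 1 lower.

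A final list held 9 further autosomal genes with differences described between C57BL/6 sublines, and 4 of them were tested. Of those not tested, Nlrp12, Crb1, Gabra2 and Mmrn1 had at most 6 counts in any library, too few to compare. In Ch25hKO 0 of 4 were called higher and 3 lower, and in LXRdKO 2 were higher and 0 lower. Over all tested genes 19.8% and 19.5% were called in Ch25hKO and 16.4% and 15.5% in LXRdKO, and 4 genes are too few to set against these shares. Cyfip2, a gene of actin regulation, fell by 0.49 ± 0.07 in Ch25hKO (edgeR adjusted p = 1.1e-05) and was at -0.11 ± 0.06 in LXRdKO (edgeR adjusted p = 0.203). Ide, the insulin-degrading enzyme gene, had 11.6 and 13.9 CPM (WT), 14.9 and 13.3 CPM (Ch25hKO) and 26.4 and 22.1 CPM (LXRdKO). It rose 1.90-fold in LXRdKO (0.93 ± 0.10, edgeR adjusted p = 1.86e-06) and stood at 0.14 ± 0.10 in Ch25hKO, where it passed without WT replicate 2 (0.26, edgeR adjusted p = 0.0386). Fgfbp3, a secreted carrier of fibroblast growth factors, was at -1.37 ± 0.35 in Ch25hKO (35 and 41 counts in the WT libraries, 19 and 10 in those of Ch25hKO), which no longer passed when Ch25hKO replicate 2 was left out (edgeR adjusted p = 0.0856). Dock2, a guanine exchange factor gene of leukocyte migration, was at -0.21 ± 0.05 in Ch25hKO, not passing when Ch25hKO replicate 2 was left out (edgeR adjusted p = 0.0652), and at 0.15 ± 0.05 in LXRdKO, lost in 9 alternatives (adjusted p from 0.0608 to 0.357). Among these were the omission of WT replicate 2, of LXRdKO replicate 2 or of either Ch25hKO library, each of which left 1 gene higher in LXRdKO.

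**Figure D4:**
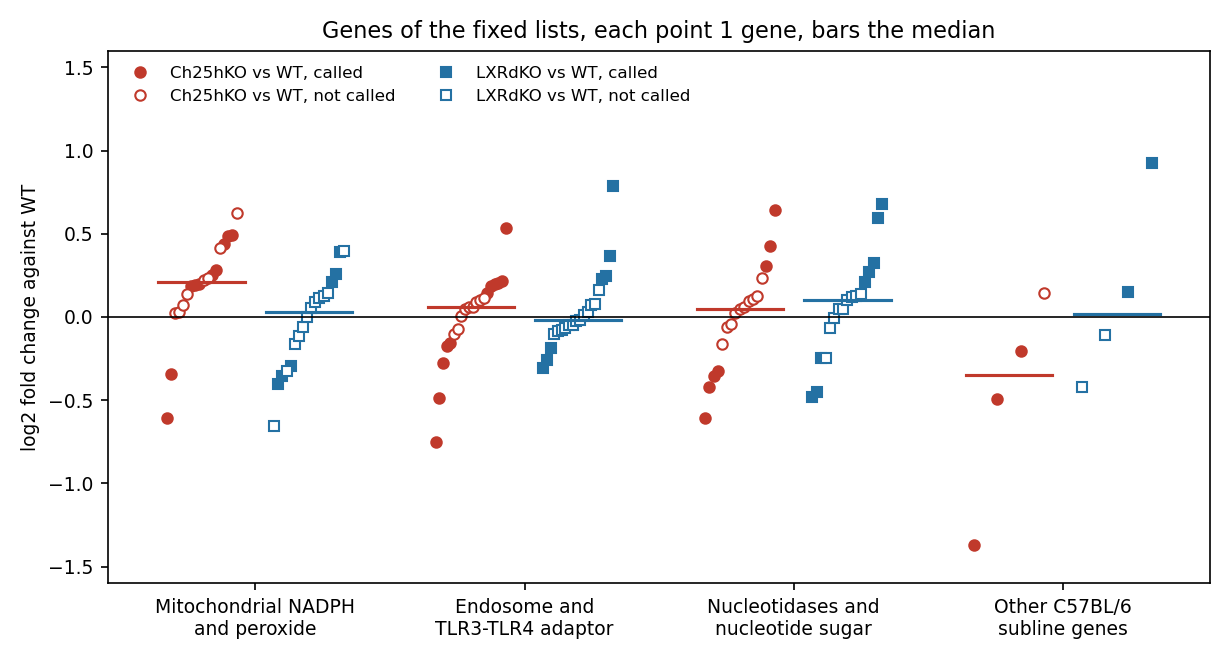
Log2 fold change against WT (vertical axis) of each tested gene of the 4 lists in Ch25hKO (circles) and LXRdKO (squares); filled points were called and bars are list medians. The medians lie between -0.02 and 0.21 except for the 4 tested subline genes in Ch25hKO (-0.35), and no gene reaches the 3.53 and 3.15 of Entpd4.

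The genes most like each member were found by the root mean square difference between their log2 CPM profiles and that of the member over the 6 libraries, each profile centred on its mean, among 7612 or 7613 named genes of at least 5 CPM. For Nnt the closest were Ccdc99 (0.07), Ckb, Syne1, Id1 and Atp11b (0.09 each), and for Wdfy1 they were Casz1 (0.05), Arl5b (0.06), Zfp36 (0.08), Slco4a1 (0.08) and Ccr7 (0.10). Ccr7, a chemokine receptor gene of mature dendritic cells, was at -0.79 ± 0.11 in Ch25hKO and -1.18 ± 0.11 in LXRdKO. The summed dendritic cell markers given above, mostly 1 gene, were likewise lower in Ch25hKO than in WT. In LXRdKO they overlapped WT, and their part in the Wdfy1 difference was not tested. Entpd4 was itself below 5 CPM in every library, so genes of its own level, Loxl2 among them, were not in this comparison. The nearest of the genes compared was Pira2 (0.47), a paired immunoglobulin-like receptor gene that itself has near-identical copies, and the next included Srebf2 (0.97), Wwc2 (1.02) and Slc1a2 (1.02). Pira2 was at 3.09 ± 0.14 in Ch25hKO and 3.83 ± 0.13 in LXRdKO, so its 2 knockouts stand in the reverse order to those of Entpd4. None of the named genes that this comparison found is on the chromosome of the member it resembles. Loxl2, which the 5 CPM limit left out, is on that of Entpd4.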

How the data were processed

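The authors deposited raw read counts per gene symbol for 6 libraries of 3 genotypes, 1 column each, with no normalization. Per the submitters' processing notes, the tools were CASAVA, STAR 2.3.0 and HTSeq and the build mm10. No source used here states the annotation, counting mode or strand setting. Libraries used an Ovation cDNA amplification kit, per the labels' protocols, and reads carry no molecular identifiers that the labels mention.

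Counts were filtered with filterByExpr, scaled by TMM and fitted over all 6 libraries with edgeR 4.0.16 in R 4.3.3 (robust quasi-likelihood test, two-sided, Benjamini-Hochberg adjustment over 12923 genes, called under 0.05). The fit was tested on simulated data with 200 changed genes. That is fewer than the 5073 called in Ch25hKO and the 4115 called in LXRdKO against WT, so the simulation does not cover changes this widespread. A standard error is the log2 fold change divided by the square root of F. CPM used TMM-scaled library sizes. Positions, exon lengths and transcripts came from GENCODE M21 (GRCm38). Of list genes, 3 were named per comparison by lowest p, with the nearest neighbour on each side, neighbours called at 2-fold or more, and the 5 most alike profiles. Alternatives were RLE and upper-quartile scaling, DESeq2 1.42.0, limma-voom (limma 3.58.1), other filters, fewer libraries and a replicate block. The genes and lists were chosen with earlier results of these data known. Some genes that this rule or these lists hold are not reported here.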

Additional observations from a re-analysis of the deposited data

How the results depend on the processing

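Against WT, the values of Nnt, Wdfy1 and Entpd4 kept their direction in all 88 combinations of value and alternative, and 87 moved by less than the spread between replicates. The exception was Wdfy1 in LXRdKO when genes had to reach 5 CPM in 2 or more libraries (-1.0). Entpd4 has no value under that filter. Between the knockouts, Entpd4 lost its call with DESeq2 (-0.37) and with the replicate block (-0.38). Leaving out 1 library at a time, LXRdKO against Ch25hKO ranged from 0.25 to 0.30 for Nnt, from -0.27 to -0.17 for Wdfy1 and from -0.44 to -0.33 for Entpd4. A group left with 1 library was assumed to vary like the others.

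Of 300 recounts of the lists and neighbours, 278 stayed within 1.5 times the original count. Subline genes higher in LXRdKO numbered 1 with RLE scaling, DESeq2, the 5 CPM filter, only the libraries compared and the replicate block. Leaving out 1 library, they ranged from 1 to 2, and those in Ch25hKO from 0 to 1 higher and from 1 to 3 lower. Likewise, genes of the NADPH and peroxide list ranged from 5 to 7 higher in Ch25hKO and from 1 to 4 in LXRdKO. Genes of the endosome list in Ch25hKO ranged from 2 to 6 higher and from 3 to 6 lower. Those of the Entpd4 list in LXRdKO ranged from 3 to 5 higher and from 1 to 3 lower. Neighbours ranged from 9 to 14 higher in Ch25hKO and from 4 to 9 lower in LXRdKO. Libraries of the same replicate number share only a number: their deviations correlated at -0.31 between WT and Ch25hKO, -0.06 between WT and LXRdKO and 0.11 between the knockouts. A block with the Ch25hKO numbers crossed, added after the data were seen, kept all 3 calls between the knockouts. Entpd4 rests on 16 and 18 counts in WT, so its WT level is the least precise of the 3.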
